A study of Homo sapiens with 8 samples.

Results

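The immediate early AP-1 and EGR genes examined here were 10 genes, FOS, FOSB, FOSL1, JUN, JUNB, EGR1, IER2, IER3, ATF3 and KLF6, chosen by symbol among the 18638 gene models counted in both cell lines. All 10 were present in both count tables and all 10 passed the filter on low counts in both comparisons. The assay was factory-seq, in which caspases release the RNA that is being made in DNase-treated nuclei, applied to the colorectal cancer lines DLD-1 and HCT116 (8 libraries, n = 2 per group). The DLD-1 line, DLD-1-mAID-mClover-POLR2A(Tet-OsTIR1), carries an auxin-dependent degron (mAID) and the fluorescent protein mClover on POLR2A, which encodes the catalytic subunit RPB1 of RNA polymerase II. Its cells were compared as untreated controls and after 24 h of doxycycline, which induces the auxin receptor TIR1, followed by 500 µM auxin for 14 h. HCT116 cells of the genotype TOP2A-mAID, which carry the degron on TOP2A (DNA topoisomerase II alpha), were the untreated controls for HCT116 cells labelled TO2B-/--TOP2A-mAID, which also lack TOP2B by their label. For this group, here called TOP2B-/-, the titles read control while the treatment field and the column names read auxin, and if the treatment field holds these cells were given the same doxycycline for 24 h and 500 µM auxin for 14 h. Loss of TOP2B, degradation of TOP2A and exposure to the agents themselves then cannot be told apart. The titles of all 8 libraries read async, for asynchronous cells, and no label states a sorting of G1 cells. Whether untreated cells received doxycycline and how many clones each line holds is stated nowhere in the labels. Separate cultures for replicate libraries are not stated either, so p-values measure only the spread between these libraries.

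Immediate early genes are switched on within minutes of a signal without new protein synthesis, largely through MAP kinases acting on SRF, its ternary complex partners and CREB-type factors already bound at their promoters. FOS, FOSB and FOSL1 encode FOS-family proteins that pair with JUN or JUNB to form the AP-1 transcription factor, EGR1 encodes a zinc finger factor that binds GC-rich sites, and ATF3 encodes a stress-induced factor of the same leucine zipper class. Many of these genes are short, hold polymerase paused near their start, and have been linked to topoisomerase II at their promoters, which is why their nascent RNA is of interest after loss of either enzyme.

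On GRCh38 FOS lies on chromosome 14 (75278778 to 75282234), FOSB on 19 (45467995 to 45475179), FOSL1 on 11 (65892136 to 65900526), JUN on 1 (58780791 to 58784113) and JUNB on 19 (12791496 to 12793311). EGR1 lies on chromosome 5 (138465492 to 138469315), IER2 on 19 (13150468 to 13154904), IER3 on 6 (30743199 to 30744550), ATF3 on 1 (212565334 to 212620777) and KLF6 on 10 (3775996 to 3785281). Their counted spans, introns included, ran from 1352 bp for IER3 to 55444 bp for ATF3, with a median of 4131 bp against 23290 bp over all gene models. No other gene model overlapped them, and the closest neighbours were STX10 at 93 bp from IER2, CCDC85B at 500 bp from FOSL1 and FLOT1 at 522 bp from IER3. Whether reads from these neighbours were counted for the 3 genes was not tested.

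Promoter windows from 250 bases before to 50 bases after the start of transcription were found in RefSeq (GRCh38.p14) for 8 of the 10 genes, with FOSL1 and IER3 unmatched. Windows of 5 genes are printed in the direction of transcription because these genes moved in opposite directions in DLD-1 or carry the site of SRF. Capitals mark TGACG (the start of a CREB or ATF site), TGACATCA (a variant AP-1 or ATF site), GCGNGGGCG (an EGR site), the CArG box (the site of SRF) and, for the general initiation machinery, TATAAA, each searched on both strands.
FOS, chr14:75278578-75278877, plus strand: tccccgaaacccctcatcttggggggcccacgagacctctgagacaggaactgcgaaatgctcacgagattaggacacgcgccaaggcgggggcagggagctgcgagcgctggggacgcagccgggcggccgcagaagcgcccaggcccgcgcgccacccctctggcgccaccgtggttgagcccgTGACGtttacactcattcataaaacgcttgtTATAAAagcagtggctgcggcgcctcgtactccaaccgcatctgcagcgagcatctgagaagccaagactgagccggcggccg
JUN, chr1:58783998-58784297, minus strand: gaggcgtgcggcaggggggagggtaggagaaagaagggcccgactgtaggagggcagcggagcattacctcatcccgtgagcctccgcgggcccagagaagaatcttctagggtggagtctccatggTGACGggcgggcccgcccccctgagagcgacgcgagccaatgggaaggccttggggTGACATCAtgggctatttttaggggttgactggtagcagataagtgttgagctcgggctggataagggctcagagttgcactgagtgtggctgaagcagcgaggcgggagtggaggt
EGR1, chr5:138465229-138465528, plus strand: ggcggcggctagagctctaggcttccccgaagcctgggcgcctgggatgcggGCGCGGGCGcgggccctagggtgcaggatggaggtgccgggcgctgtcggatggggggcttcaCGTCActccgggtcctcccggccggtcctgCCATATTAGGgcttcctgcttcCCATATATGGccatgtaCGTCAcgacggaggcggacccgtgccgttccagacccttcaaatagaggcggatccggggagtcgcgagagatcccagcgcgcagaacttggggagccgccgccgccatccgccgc
IER2, chr19:13150161-13150460, plus strand: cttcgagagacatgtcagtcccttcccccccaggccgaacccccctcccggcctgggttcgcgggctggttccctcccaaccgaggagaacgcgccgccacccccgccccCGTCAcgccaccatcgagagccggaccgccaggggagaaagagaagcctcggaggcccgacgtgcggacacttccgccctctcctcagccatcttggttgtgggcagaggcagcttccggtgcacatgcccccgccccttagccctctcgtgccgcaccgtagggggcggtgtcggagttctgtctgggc
KLF6, chr10:3785160-3785459, minus strand: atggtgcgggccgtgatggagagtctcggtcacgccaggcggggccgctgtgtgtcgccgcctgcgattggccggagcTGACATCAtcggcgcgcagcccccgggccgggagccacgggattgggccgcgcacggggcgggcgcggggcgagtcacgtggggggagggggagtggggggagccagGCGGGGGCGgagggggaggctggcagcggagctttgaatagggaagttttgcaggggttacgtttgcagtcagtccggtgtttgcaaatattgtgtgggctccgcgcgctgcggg

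The CArG box occurred only in the EGR1 window among the windows of the 8 genes, where 2 copies began 105 and 83 bases before the start. It occurred in 1.29% of all 35116 windows. Sites more than 250 bases before a start were not searched, so a gene without a match here may carry one further upstream. TATAAA began 33, 31 and 30 bases before the start of FOS, JUNB and FOSB and 230 bases before 1 of the 2 annotated starts of ATF3, and was found in 11.5% of all windows. TGACG was found in 6 of the 8 genes (JUN, EGR1, FOS, JUNB, IER2 and FOSB) and in 24.6% of all windows. TGACATCA, searched after these sequences had been seen, lay in the windows of JUN, ATF3 and KLF6 and in 2.61% of all windows. GCGNGGGCG lay in the windows of EGR1 and KLF6 and in 9.43% of all windows. The consensus AP-1 site TGAGTCA was in none of the 8 genes' windows and in 4.95% of all windows. None of these matches overlapped another, and a match describes letters, not binding.

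Library totals were 10739622 to 62626875 reads in DLD-1, lowest in both auxin libraries, and 32129400 to 36491540 in HCT116. A background density was estimated from 3111 long gene models with few reads in controls of the opposite line, and it corresponded to 2.24% and 9.02% of all reads in the DLD-1 controls, 39.5% and 59.6% after auxin, and 0.256% to 3.03% in HCT116. Control 2 stood apart in HCT116, with the lowest background and the highest CPM (reads relative to library size, scaled by edgeR's TMM factors) for 8 of the 10 genes. Summed CPM of 10 colon epithelium markers was 5746 to 7370 in DLD-1 controls and 3815 to 5255 after auxin, and 3979 to 5026 in HCT116 controls and 2907 to 3295 in TOP2B-/-, lower without overlap in both comparisons. Single genes did not overlap in either direction for 91.0% of all genes in DLD-1, and were lower without overlap for 27.6% in HCT116. Of the colon markers, 1 in DLD-1 and 3 in HCT116 were under 3 times background in every library. In DLD-1, from control to auxin, sums of 6 fibroblast markers went from 8.25 to 16.7 up to 46.2 to 62.7, those of 5 immune cell markers from 1.85 to 6.55 up to 19.2 to 27.5, and those of 4 endothelial markers from 13.7 to 34.7 up to 186.7 to 187.5 CPM, with 5, 4 and 3 of these markers under 3 times background in every DLD-1 library. In HCT116 the fibroblast sum was 44.2 to 47.2 CPM in controls and 27.9 to 32.8 in TOP2B-/-, the immune cell sum 0.197 to 0.981 and 0.665 to 1.59, and the endothelial sum 5.92 to 10.1 and 5.75 to 10.9. The part of these markers in the results was not tested. RNA of POLR2A was 281 and 180 CPM in DLD-1 controls and 159 and 108 CPM after auxin, and TOP2B RNA was 186 and 192 CPM in HCT116 controls and 135 and 132 CPM in TOP2B-/-.

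Per kilobase of counted gene, JUNB was the highest of the 10 genes in DLD-1 controls at 25.0 and 27.4 CPM per kb. IER2, EGR1 and KLF6 followed at means of 8.05, 4.79 and 2.69 CPM per kb, and FOSB was lowest at 0.0585 CPM per kb. The ranges of all neighbours in this order were separate. In HCT116 controls JUNB (21.6), IER2 (15.8), JUN (13.7) and FOSL1 (12.1, all means in CPM per kb) led the order, each overlapping the next, so their order is not resolved. FOSL1, the gene of FRA1, stood at 0.705 CPM per kb in DLD-1 controls and 12.1 in HCT116 controls, and JUN at 0.758 and 13.7, and these levels are set side by side across tables that were counted separately, without a test. FOS moved from place 6 of the order in DLD-1 controls to place 3 after auxin, at 3.86 and 2.57 CPM per kb, where it overlapped both IER2 and EGR1. In TOP2B-/- FOSL1 (14.3) and JUN (13.8) overlapped at the head of the order, with JUNB below them at 10.7 CPM per kb.

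**Figure D1:**
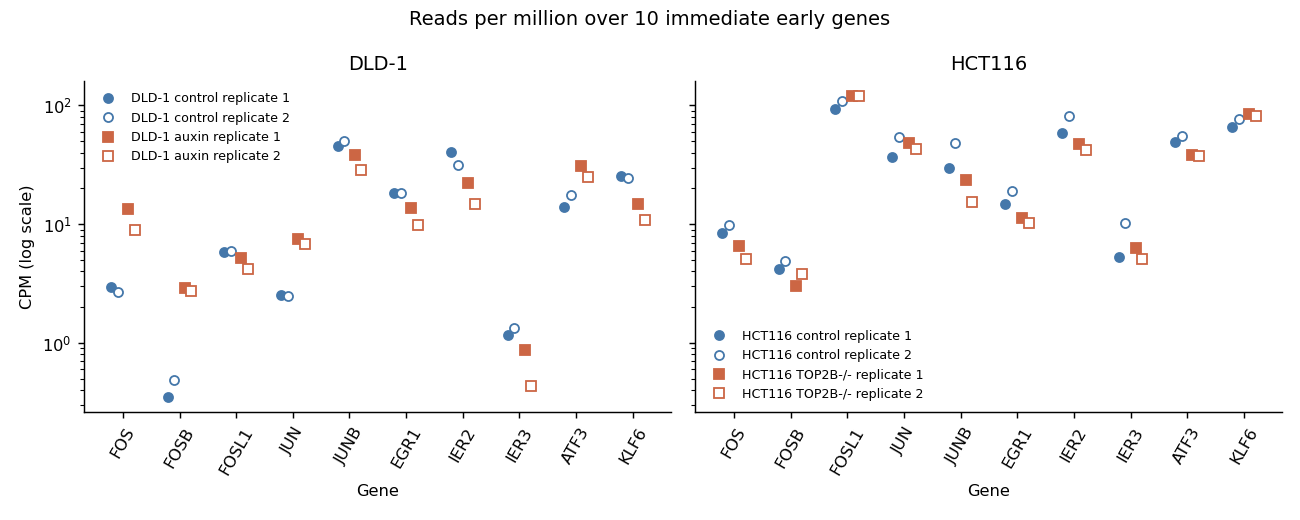
CPM of each gene in each library on a log axis, in DLD-1 (left) and HCT116 (right), with circles for controls and squares for auxin or TOP2B-/-, filled for replicate 1 and open for replicate 2. FOS, FOSB, JUN and ATF3 lie higher in both auxin libraries than in both DLD-1 controls, and in HCT116 the squares of FOS, JUNB, EGR1, IER2 and ATF3 lie below the circles.

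The DLD-1 comparison asks how nascent RNA of these genes differed after auxin, which targets the degron on RPB1. Loss of RPB1 and exposure to doxycycline and auxin themselves cannot be told apart here. FOS, FOSB, JUN and ATF3 rose relative to other genes and IER2 and KLF6 fell, while FOSL1, JUNB, EGR1 and IER3 did not pass the test. Of the 10 genes, 4 were thus called higher, against 32.2% of the 17625 genes tested, and 2 lower, against 35.0%, by edgeR's quasi-likelihood test with Benjamini-Hochberg adjustment over all genes. Both shares are near the background of this comparison, in which most genes were called. CPM of the groups did not overlap for any of the 10 genes, nor for 91.0% of all genes. Their median log2 fold change was -0.42, against -0.06 over all genes, and with the background subtracted it was 0.50, against -0.16. After that subtraction FOS and JUN kept their calls and JUNB was called higher. ATF3, IER2 and KLF6 lost their calls there, and FOSB could not be tested. CPM are shares of a library, so total output was not measured, and fewer cells cannot be told apart from less RNA per cell.

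FOS had 145 and 82 reads in the DLD-1 controls and 230 and 122 after auxin, in libraries several times shallower, which gave 2.98 and 2.68 CPM against 13.3 and 8.87 CPM. Both auxin libraries were above both controls. The log2 fold change was 1.97 (SE 0.37, edgeR adjusted p = 0.0146), a 3.92-fold rise. FOS reads were 13.6 and 6.30 times the expected background after auxin, and 34.2 and 8.15 times in the controls. With the background subtracted the log2 fold change was 3.20 (edgeR adjusted p = 0.00326).

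JUN, a partner with which FOS proteins bind DNA, had 124 and 76 reads in the controls and 129 and 93 after auxin, or 2.55 and 2.49 CPM against 7.49 and 6.76 CPM. Its groups were apart and its replicates close, and its log2 fold change was 1.50 (SE 0.35, edgeR adjusted p = 0.0227). JUN reads were 7.93 and 5.00 times background after auxin and its subtracted log2 fold change was 2.70 (edgeR adjusted p = 0.00720). With offsets that remove the trend of each library with gene length it was 0.69 and was not called (edgeR adjusted p = 0.258), whereas FOS kept its call at 1.17 (edgeR adjusted p = 0.0399).

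FOSB had 17 and 15 reads in the controls and 50 and 38 after auxin, or 0.350 and 0.491 CPM against 2.90 and 2.76 CPM. Its log2 fold change of 2.75 (SE 0.50, edgeR adjusted p = 0.0136) was the highest of the 10. The 50 and 38 reads compare with 35.2 and 40.2 reads expected from the background, within the exact Poisson 95% intervals of 26.9 to 52.2 for auxin 2 and just below that of 37.1 to 65.9 for auxin 1, so its call rests on reads at or near background. After background subtraction FOSB fell out of the genes that could be tested. These intervals cover counting error only.

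ATF3, whose gene model spans 55444 bp and so collects more background than the others, had 678 and 543 reads in the controls and 537 and 346 after auxin, or 14.0 and 17.8 CPM against 31.2 and 25.1 CPM. Its log2 fold change was 0.83 (SE 0.25, edgeR adjusted p = 0.0388). The auxin reads were 1.98 and 1.11 times background, against 9.96 and 3.36 times in the controls. With the background subtracted the value was 0.65 and was not called (edgeR adjusted p = 0.459).

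KLF6, a Krüppel-like zinc finger factor, had 1245 and 743 reads in the controls and 255 and 149 after auxin, or 25.6 and 24.3 CPM against 14.8 and 10.8 CPM. IER2, a nuclear protein gene of the early response, had 1954 and 955 reads against 380 and 202, or 40.2 and 31.3 CPM against 22.1 and 14.7 CPM. Both were lower in every auxin library than in every control. KLF6 had a log2 fold change of -0.96 (SE 0.26, edgeR adjusted p = 0.0303) and IER2 of -0.96 (SE 0.29, edgeR adjusted p = 0.0394). Background subtraction moved KLF6 to -0.06 and IER2 to 0.22, neither of them called, with edgeR adjusted p of 0.764 and 0.276.

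JUNB, which stayed the highest of the 10 per kilobase, had 2202 and 1520 reads in the controls and 657 and 396 after auxin, or 45.3 and 49.7 CPM against 38.1 and 28.8 CPM. EGR1 had 894 and 557 reads against 235 and 135, or 18.4 and 18.2 CPM against 13.6 and 9.81 CPM. Their CPM ranges were apart, but their log2 fold changes of -0.51 (SE 0.22) and -0.64 (SE 0.28) missed the threshold, with edgeR adjusted p of 0.0893 and 0.0920. JUNB was 73.9 and 38.9 times background after auxin, the highest of the 10 genes, and turned to 0.78 with the background subtracted, called higher (edgeR adjusted p = 0.0210). EGR1 turned to 0.50 there (edgeR adjusted p = 0.0776).

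FOSL1 had 284 and 183 reads in the controls and 89 and 58 after auxin, or 5.85 and 5.99 CPM against 5.17 and 4.22 CPM, with a log2 fold change of -0.33 (SE 0.34, edgeR adjusted p = 0.410). IER3, a stress-inducible regulator of cell survival, had 57 and 41 reads against 15 and 6, or 1.17 and 1.34 CPM against 0.871 and 0.436 CPM, with -0.92 (SE 0.58, edgeR adjusted p = 0.208). In auxin 2 both were near background, with 58 reads against 47.0 expected and 6 against 7.57.

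**Figure D2:**
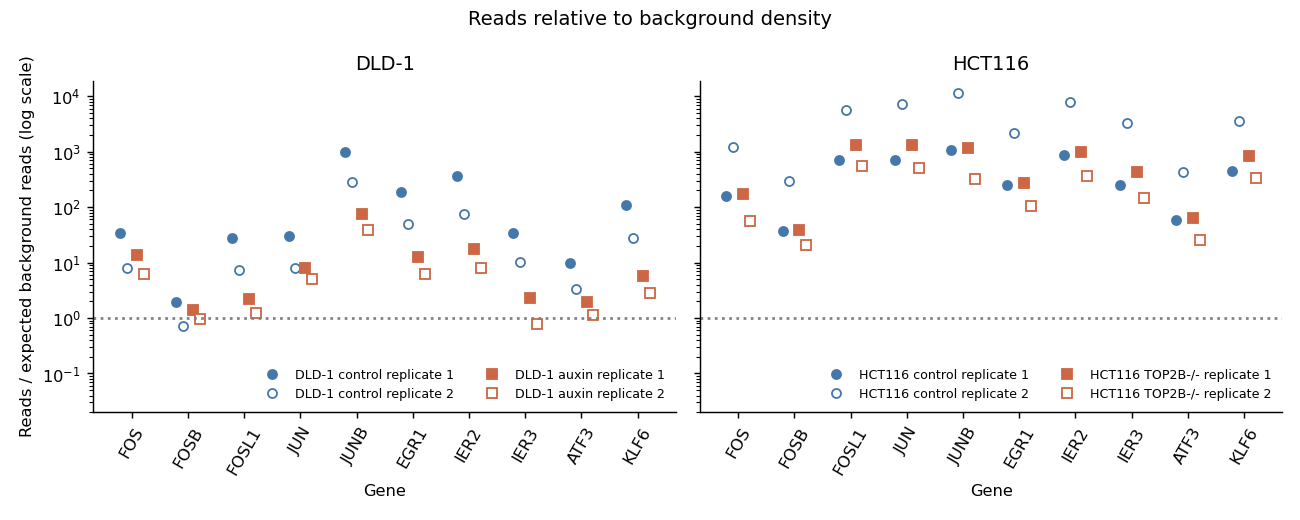
Reads of each gene divided by the reads expected from the background density, per library, on a log axis with a dotted line at 1. After auxin FOSB, IER3, FOSL1 and ATF3 lie within 2.27 times background while JUNB is at 73.9 and 38.9 times, and in HCT116 every gene is at least 20.4 times background.

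The part of background in these changes was not tested beyond the subtraction. Values also moved with scaling, and with library totals alone FOSL1 and JUNB turned sign. Library totals alone moved the median of all genes from -0.06 to 0.57. On that scale FOS was at 2.60, JUN at 2.13, FOSB at 3.38 and ATF3 at 1.46, all called, while JUNB was at 0.12, FOSL1 at 0.30, EGR1 at -0.01, KLF6 at -0.33 and IER2 at -0.32, none called. With length offsets, by which the median of all genes was -0.39, JUNB (-1.64), EGR1 (-1.40), IER2 (-1.69), IER3 (-2.13) and KLF6 (-1.47) were called lower. FOS and JUN lay above zero and above the median of all genes under each of these treatments. Without auxin replicate 1 or 2, which leaves 1 auxin library, FOS had 1.74 and 2.23. No call among the 10 genes was kept there, where far fewer of all genes were called. Without control 1, IER2 (-0.77) and ATF3 (0.66) lost their calls, with edgeR adjusted p of 0.0557 and 0.118.

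**Figure D3:**
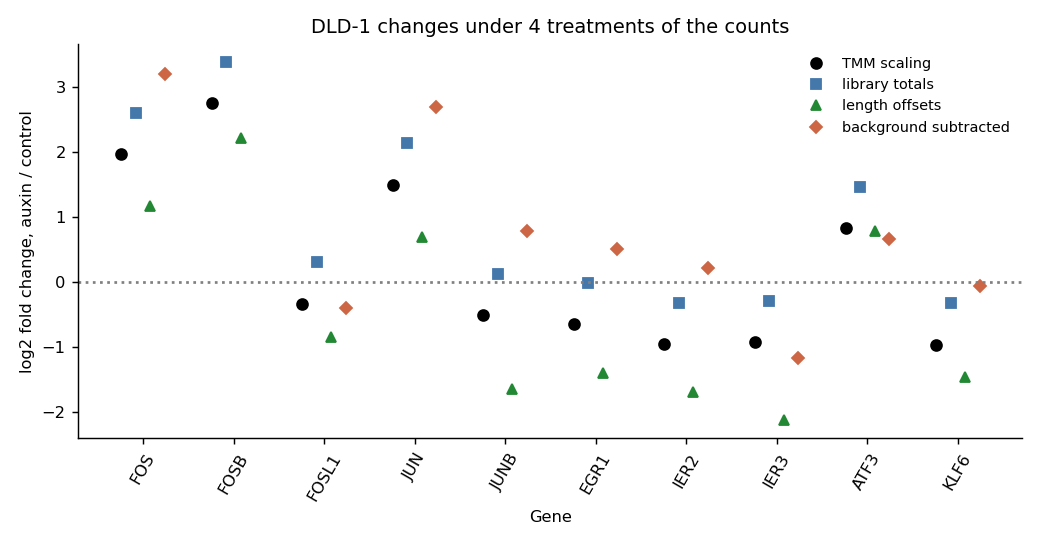
DLD-1 log2 fold change, auxin over control, of each gene with TMM scaling, library totals, length offsets and subtracted background. FOS and JUN lie above 0 under all 4, JUNB, EGR1 and IER2 cross 0, and FOSB has no subtracted value.

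Shares within the 10 genes do not depend on the scaling of a library. FOS took 1.91% and 1.74% of the reads over the 10 genes in DLD-1 controls and 8.93% and 7.90% after auxin, and JUN took 1.63% and 1.61% against 5.01% and 6.02%. ATF3 took 8.92% and 11.5% against 20.8% and 22.4%. These shares include background, from which 271 and 311 of the 537 and 346 ATF3 reads after auxin were expected. KLF6 went the other way, from 16.4% and 15.8% to 9.90% and 9.64%, and IER2 from 25.7% and 20.3% to 14.7% and 13.1%. For every 100 reads over EGR1 there were 16.2 and 14.7 over FOS in the controls and 97.9 and 90.4 after auxin, although both genes respond to the same signals in textbook accounts. JUNB kept close to EGR1, at 246 and 273 against 280 and 293 reads.

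**Figure D4:**
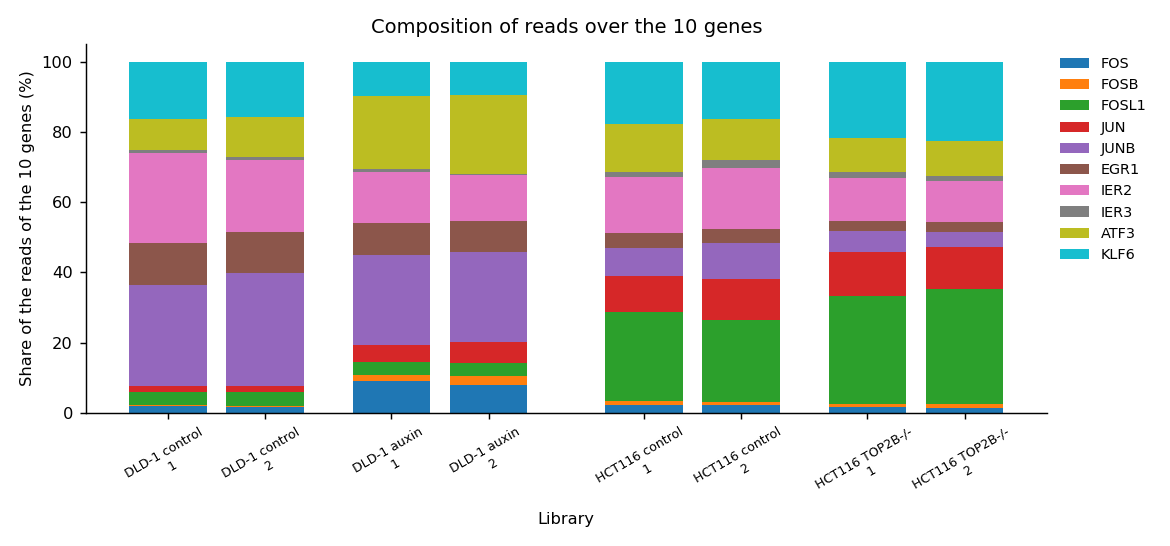
Share of each gene in the reads over the 10 genes, background reads included, as stacked bars that sum to 100% in each library. FOS, JUN and ATF3 widen from DLD-1 control to auxin, and FOSL1 widens from 25.4% and 23.3% in HCT116 controls to 30.8% and 32.9% in TOP2B-/-.

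The HCT116 comparison asks how these genes differed in cells labelled as lacking TOP2B. Fitted values lay below zero for 7 of the 10 genes, with JUNB, EGR1, IER2, FOS and ATF3 lowest, just above zero for FOSL1 and KLF6, and near zero for JUN. By edgeR 0 of the 10 genes were called, against 3.41% of the 15273 genes tested, and 5 of the 10 had an unadjusted p under 0.05 (FOS, JUNB, EGR1, IER2 and ATF3), against 22.9% of all genes. DESeq2 called 5 lower (FOS, JUNB, EGR1, IER2 and ATF3) and FOSL1 higher, against 11.9% and 9.65% of all genes. CPM did not overlap between groups for 6 genes lower and 2 higher in TOP2B-/-, against 27.6% of all genes in each direction. Their median log2 fold change was -0.46, against 0.03 over all genes.

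JUNB had 30.0 and 48.4 CPM in the controls and 23.5 and 15.4 CPM in TOP2B-/-, from 1008 and 1717 against 814 and 506 reads. The controls spread widely, and the log2 fold change of -1.01 (SE 0.33) had an edgeR adjusted p of 0.195. EGR1 had 14.8 and 19.1 CPM against 11.2 and 10.3 CPM, and a log2 fold change of -0.65 (SE 0.17, edgeR adjusted p = 0.137). IER2 had 59.1 and 81.1 CPM against 47.4 and 42.3 CPM, and -0.64 (SE 0.18, edgeR adjusted p = 0.147). Each was lower in both TOP2B-/- libraries than in both controls.

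ATF3 came nearest to the threshold, with 49.3 and 55.6 CPM in the controls against 38.2 and 37.2 CPM, a log2 fold change of -0.48 (SE 0.077) and an edgeR adjusted p of 0.0659. FOS had 8.38 and 9.78 CPM against 6.53 and 5.10 CPM, at -0.64 (SE 0.20, edgeR adjusted p = 0.177). FOSB, at 4.16 and 4.88 against 3.04 and 3.81 CPM, had -0.40 (SE 0.23, edgeR adjusted p = 0.388). For every 100 reads over EGR1, FOS took 56.7 and 51.3 in the controls against 58.4 and 49.4 in TOP2B-/-.

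FOSL1 had 92.9 and 109 CPM in the controls and 119.7 and 119.8 CPM in TOP2B-/-, with a log2 fold change of 0.24 (SE 0.091, edgeR adjusted p = 0.231). KLF6 had 65.4 and 76.7 CPM against 83.9 and 82.0 CPM, with 0.22 (SE 0.091, edgeR adjusted p = 0.259). Both were above the controls in both libraries. JUN had 36.8 and 54.5 CPM against 48.2 and 43.4 CPM, and its log2 fold change of 0.0040 (95% interval -0.58 to 0.59) leaves room for changes of either sign. IER3 had 5.32 and 10.3 CPM against 6.30 and 5.13 CPM, with overlapping groups, and a log2 fold change of -0.45 (SE 0.38).

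Control 2 bore on these values. Without it the fitted values shrank to -0.69 for JUNB, -0.53 for EGR1 and -0.47 for IER2, while IER3 turned to 0.03. Without control 1 they were -1.32 for JUNB, -0.83 for EGR1, -0.86 for IER2 and -0.57 for ATF3.

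**Figure D5:**
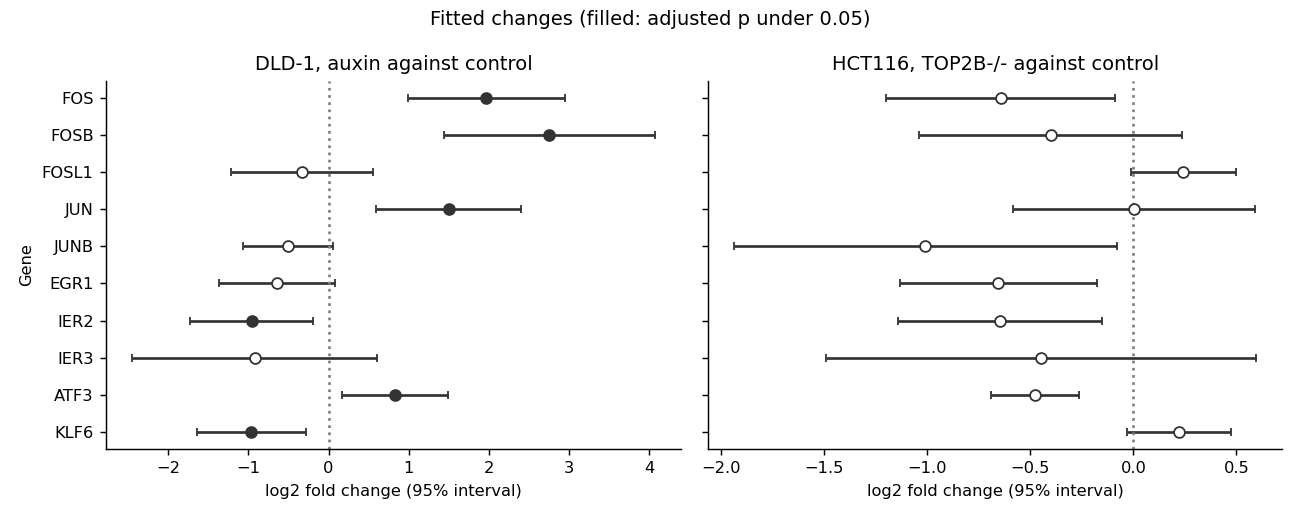
Log2 fold change with its 95% interval for each gene in DLD-1 (left) and HCT116 (right), with filled points where the edgeR adjusted p was under 0.05 and each panel on its own axis. In DLD-1 FOS, FOSB, JUN and ATF3 lie above 0 and IER2 and KLF6 below with filled points, and in HCT116 0 points are filled.

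Other genes of the pathway were read from 6 lists of 109 genes. Their counts in DLD-1 are to be read against the 32.2% of all genes called higher and 35.0% called lower. Over all lists, 12 of 109 genes were called higher and 58 lower. In DLD-1, MAP kinase feedback genes, which switch the signal off, were called lower in 10 of 13 and higher in 0, with a median log2 fold change of -1.72. DUSP8, DUSP16 and DUSP10, which encode phosphatases of MAP kinases, had -3.99, -3.29 and -2.22. DUSP8 and DUSP16 were below background in both auxin libraries, and DUSP10 was at 1.08 and 0.990 times background there. Of 21 genes of the ERK and SRF signal, 13 were lower and 1 higher (median -0.88), led by MAPK8 (-2.46), MKL2 (-2.45) and MAPK14 (-2.43). MAPK8, MKL2 and MAPK14 lay at 1.21 to 2.23 times background after auxin, and stayed called lower with the background subtracted. Of 16 AP-1 and ATF partners, 9 were lower and 1 higher (median -0.92), with CEBPB at -2.94, JDP2 at -2.81 and BATF3 at 2.70. JDP2 was at 1.01 and 0.903 times background after auxin, and BATF3 lay at 0.841 to 1.34 times background in all 4 libraries and was not called with the background subtracted (edgeR adjusted p = 0.124).

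Among the other EGR genes, EGR4, EGR2 and EGR3 were called higher in DLD-1 at 2.99, 2.78 and 2.76, whereas the corepressors NAB1 and NAB2 (NAB2 named after its values were seen) made up the 2 called lower of the 5 listed. EGR2, EGR3 and EGR4 lay at 0.867 to 2.84 times background in the controls and 1.47 to 2.17 times after auxin. With the background subtracted EGR2 (4.48, edgeR adjusted p = 0.0122) and EGR3 (4.46, edgeR adjusted p = 0.0268) stayed called higher. EGR4 (4.76, edgeR adjusted p = 0.0605) did not. Of 34 other immediate early genes, 4 were higher and 16 lower (median -0.81), among them MYC at -4.40 and ID1 at -3.66. After auxin MYC lay at 2.475 and 0.998 times background, and ID1 at 18.4 and 8.98 times. ARC, also called higher, had 0 and 1 reads in the controls and 12 and 16 after auxin, all below background. Of 20 AP-1 target genes, 3 were higher and 8 lower (median -0.27), with KRT80 at -4.16, VEGFA at -2.50 and MMP7 at 3.14, the last on reads below background. KRT80 lay at 1.75 and 0.954 times background after auxin, and VEGFA at 7.07 and 3.98 times. With the background subtracted, 18 of 102 listed genes that could be tested were higher and 39 lower, against 12 and 58 of 109. Over all genes, 8563 of 14351 were called in either direction after subtraction, and 11855 of 17625 before it. Without either auxin library, which leaves 1 library in that group, the calls of EGR2, EGR3 and EGR4 were lost, and far fewer of all genes were called.

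In HCT116 4 of 105 listed genes were higher and 3 lower by edgeR, against 1.75% and 1.66% of all genes, with a median of -0.09. TIPARP, an early response gene of the aryl hydrocarbon receptor, rose at 1.03, and NAB1 at 0.50. The growth factor genes EREG and AREG, which are AP-1 targets that signal through the EGF receptor, rose at 1.02 and 1.00, while the keratin gene KRT80 fell by 1.62 on the log2 scale. DUSP5, a phosphatase of ERK, fell by 0.79 and RPS6KA5, a kinase downstream of ERK, by 0.52. Adjusted p for these 7 genes lay between 0.0254 and 0.0374 in edgeR's quasi-likelihood test, and without control 2 the lists held 4 called higher and 4 called lower. Without control 1 they held 8 and 28, where 7.68% and 8.32% of all genes were called higher and lower, and without either TOP2B-/- library 0 genes were called in edgeR.

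Likeness of pattern was measured by Pearson correlation of log2 CPM over the 8 libraries, after each cell line was centred on its mean, across 15204 other genes. CYP27A1 (0.993), GSTP1 (0.991) and ACTA1 (0.991) were most like FOS, DSN1 (0.993), HCFC1R1 (0.990) and GID8 (0.989) most like EGR1, and NUDT5 (0.999), LGALS8 (0.998) and KANSL2 (0.998) most like KLF6. Among the 10 genes themselves, EGR1 was closest to IER2 (0.966) and JUNB (0.914), and FOS to FOSB (0.935), ATF3 (0.934) and JUN (0.918). FOS and EGR1 correlated at -0.31. With 8 libraries in which the auxin libraries share low depth and high background, these values describe the libraries and carry no p.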

How the data were processed

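The authors deposited raw read counts over 18638 RefSeq gene models, 1 table per cell line, with coordinates on GRCh38. STAR, DESeq2 and hg38 are named in the submitters' processing notes, while settings of the aligner and counter, and any use of strand, were not stated. Counting covered gene spans, introns included, over less than the span in 1443 models, and no other gene model overlapped any of the 10 genes. The authors also deposited tables of their own comparisons (fold changes, p-values and normalized values for 1497 and 922 genes), which were not used. Every count column was matched to its library.

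Each cell line's 4 libraries were fitted with edgeR 4.0.16 in R 4.3.3 (filterByExpr, TMM, quasi-likelihood F test, Benjamini-Hochberg at 0.05 over all genes tested, 2 residual degrees of freedom). Standard errors came from the F statistic. Fits were tested on simulated data. Alternatives were DESeq2 1.42.0, other scalings and filters, a replicate block, each library left out, all 8 libraries, background subtraction and length offsets. Background was the median density over the 20% of long models (5000 bp or more) on each chromosome, Y excepted, that had the fewest reads per kb in controls of the other line. CPM used TMM-scaled totals, and log2 CPM a prior count of 2. The 10 genes, lists, markers and tests were chosen with earlier results of these data known. All 10 genes are named, each list by its counts and its 3 called genes with the largest change at most, and for likeness the 3 closest genes to FOS, EGR1 and KLF6. Same-numbered libraries deviated together in DLD-1 (correlation 0.562) and oppositely in HCT116 (-0.821). With 2 pairs each the numbers were not taken to pair libraries.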

Additional observations from a re-analysis of the deposited data

How the results depend on the processing

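In DLD-1, 11855 genes and 6 of the 10 were called, and DESeq2, RLE scaling, no filter, the replicate block (12963 genes, 6 of the 10) and the fit of all 8 libraries each also called 6. A minimum mean CPM of 5 called 3 (FOS, JUN and ATF3), and background subtraction 3 (FOS, JUN and JUNB). FOSB and IER3 did not pass that CPM minimum and FOSB could not be tested after subtraction, so calls and medians there rest on fewer genes. Leaving out single libraries gave 2393 to 12732 genes and 0 to 6 of the 10, with 0 without either auxin library. The median of -0.42 became 0.21 with library totals, -0.04 with the CPM minimum, -0.21 with all 8 libraries, 0.50 with subtraction (all genes -0.16), -1.12 with length offsets, and -0.51 to -0.26 with single libraries left out. Signs turned for FOSL1 (0.30) and JUNB (0.12) with library totals, FOSL1 (0.05) with the CPM minimum, and JUNB (0.78), EGR1 (0.50) and IER2 (0.22) with subtraction, and the cause was not tested. In HCT116, 521 genes and 0 of the 10 were called. DESeq2 called 3295 and 6, the CPM minimum 1221 and 1, subtraction 2307 and 5, length offsets 1485 and 3, the 8-library fit 5 and 0, and library totals 734 and 1. Subtraction called EGR1, IER2 and ATF3 lower and FOSL1 and KLF6 higher. Length offsets called ATF3 lower and FOSL1 and KLF6 higher. The replicate block called 0 genes, and crossed numbers, a pairing chosen after seeing the data, 1808 and 3. Leaving out single libraries gave 0 to 2519 genes and 0 to 4 of the 10, with 2519 and 4 without control 1 and 0 genes without either TOP2B-/- library. JUN turned to -0.0015 with DESeq2, -0.0018 with RLE, -0.00027 with no filter, -0.0019 with all 8 libraries, and ran from -0.26 (without control 1) to 0.25 (without control 2) with single libraries left out, at -0.11 without TOP2B-/- replicate 1, and IER3 ran from -0.85 to 0.03 (without control 2). Medians of -0.66 to -0.40 came from single libraries left out. FOSB and IER3 had 6 to 57 reads per library in DLD-1.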
